A study of Homo sapiens with 3 samples.

Results

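The genes described here are 39 genes of the NRF2 antioxidant response, of glutathione and thioredoxin chemistry, of NADPH supply and of conjugation, out of 23277 gene symbols measured in CaSki cells. They were chosen by symbol for their function, without the aldo-keto reductases and the iron genes, with the FPKM differences between these same libraries already known, and all 39 were found. CaSki is an established line from an epidermoid carcinoma of the cervix. RNA sequencing of 3 libraries was used to look for genes that NANOG, a homeobox factor of pluripotent cells, controls together with the histone deacetylase HDAC1. The HDAC1 siRNA library came from cells with FLAG-NANOG in the retroviral vector pMSCV and siHDAC1. The NANOG library came from cells with pMSCV/FLAG-NANOG and siGFP, a control siRNA, and the empty vector library from cells with the pMSCV empty vector and siGFP. All 3 groups thus carry the vector and an siRNA, and NANOG is driven from the vector and not from its own gene; whether the lines are pools or clones, and how long after transfection RNA was taken, is not stated in the labels. HDAC1 siRNA in empty vector cells was not analysed here. With 1 library in each group, differences have no replicate check, and there is no test, standard error or p-value.

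NRF2, encoded by NFE2L2, is a transcription factor that KEAP1 holds to a CUL3 ubiquitin ligase and so keeps short-lived. Oxidants and electrophiles modify cysteines of KEAP1, NRF2 then accumulates, pairs with a small MAF protein such as MAFG and binds antioxidant response elements, from which the repressor BACH1 can be displaced. Its known targets make glutathione, reduce thioredoxin, quinones and carbonyls, supply NADPH, conjugate foreign compounds and pump the conjugates out of the cell. NRF2 itself is controlled mostly through protein stability, so that its mRNA does not report its activity. In squamous carcinomas of several organs the pathway is known to be switched on by mutation.

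Values were taken to be FPKM, because the submitters' processing notes name Cufflinks and the file headers give no unit; FPKM are fragment counts divided by transcript length and by the mapped total. Differences are of log2(FPKM + 1), which understates the change of low genes. A gene was kept when it averaged at least 1 FPKM over the libraries, and 36 of the 39 genes passed, each at 1 FPKM or more in every library; 11405 genes passed in all. A difference of at least 1 on this scale is called 2-fold. Absolute depth is unknown; among genes under 0.3 FPKM the most frequent ratio was 0.981 for the NANOG over the empty vector library (464 of 2551 genes) and 0.998 for the HDAC1 siRNA over the NANOG library (287 of 2697 genes). NANOG was at 325 FPKM in the HDAC1 siRNA library, 298 FPKM in the NANOG library and 0.0357 FPKM in the empty vector library. HDAC1 had 12.8 FPKM with HDAC1 siRNA, 108 FPKM with NANOG and 19.0 FPKM with empty vector, so that its difference of -2.98 between the NANOG libraries rests largely on a high value in the NANOG library. The NANOG library held 18 genes at least 2-fold above both others and 5 at least 2-fold below them, against 4 and 1 in the HDAC1 siRNA library and 83 and 27 in the empty vector library. It also held 6 genes, among them RPL21 and HNRNPC (chosen after their values were seen), listed at 0 there and at 5 FPKM or more elsewhere, a set that had 0 genes in the HDAC1 siRNA and 3 in the empty vector library. Of the 39 genes, OSGIN1 alone was in any of these sets, being 2-fold below both others in the empty vector library. All 8 epithelial markers reached 1 FPKM in a library or more, and none of 11 immune, fibroblast and endothelial markers did (highest 0.438 FPKM; summed, 0.827 FPKM with HDAC1 siRNA, 0.966 FPKM with NANOG and 0.605 FPKM with empty vector). The epithelial markers summed to 4482 FPKM with HDAC1 siRNA, 5663 FPKM with NANOG and 4932 FPKM with empty vector, and 4 of the 8 (KRT5, KRT7, KRT8 and KRT18) were highest in the NANOG library, while KRT19, CDH1, EPCAM and TP63 were not; their part in the results below was not tested.

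As a group the 39 genes were abundant. The 36 kept genes had a median of 58.6 FPKM, against 12.2 FPKM over all genes kept, and 15 of them (41.7%) averaged 100 FPKM or more, against 7.01% of all genes kept. Summed over the 39 genes, the FPKM came to 6163 in the HDAC1 siRNA library, 7210.4 in the NANOG library and 4989 in the empty vector library, which is 1.22% (HDAC1 siRNA), 1.38% (NANOG) and 0.96% (empty vector) of all FPKM outside small RNAs. GSTP1, PRDX1, TXN and SQSTM1 were the 4 largest entries in every library; with NQO1 in both NANOG libraries and MGST1 in the empty vector library, the top 5 held 53.2% of the sum with HDAC1 siRNA, 54.8% with NANOG and 53.0% with empty vector. The genes listed with quinone and carbonyl chemistry took 9.11% of the sum in the HDAC1 siRNA library, 11.7% in the NANOG library and 6.40% in the empty vector library. Of this role's FPKM, NQO1 gave 394 of 562 with HDAC1 siRNA, 639 of 840 with NANOG and 205 of 319 with empty vector. The conjugation genes went the other way, with 18.5% of the sum with HDAC1 siRNA, 17.1% with NANOG and 23.1% with empty vector. In bulk RNA, fewer cells expressing a gene and less RNA per cell cannot be told apart.

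**Figure D1:**
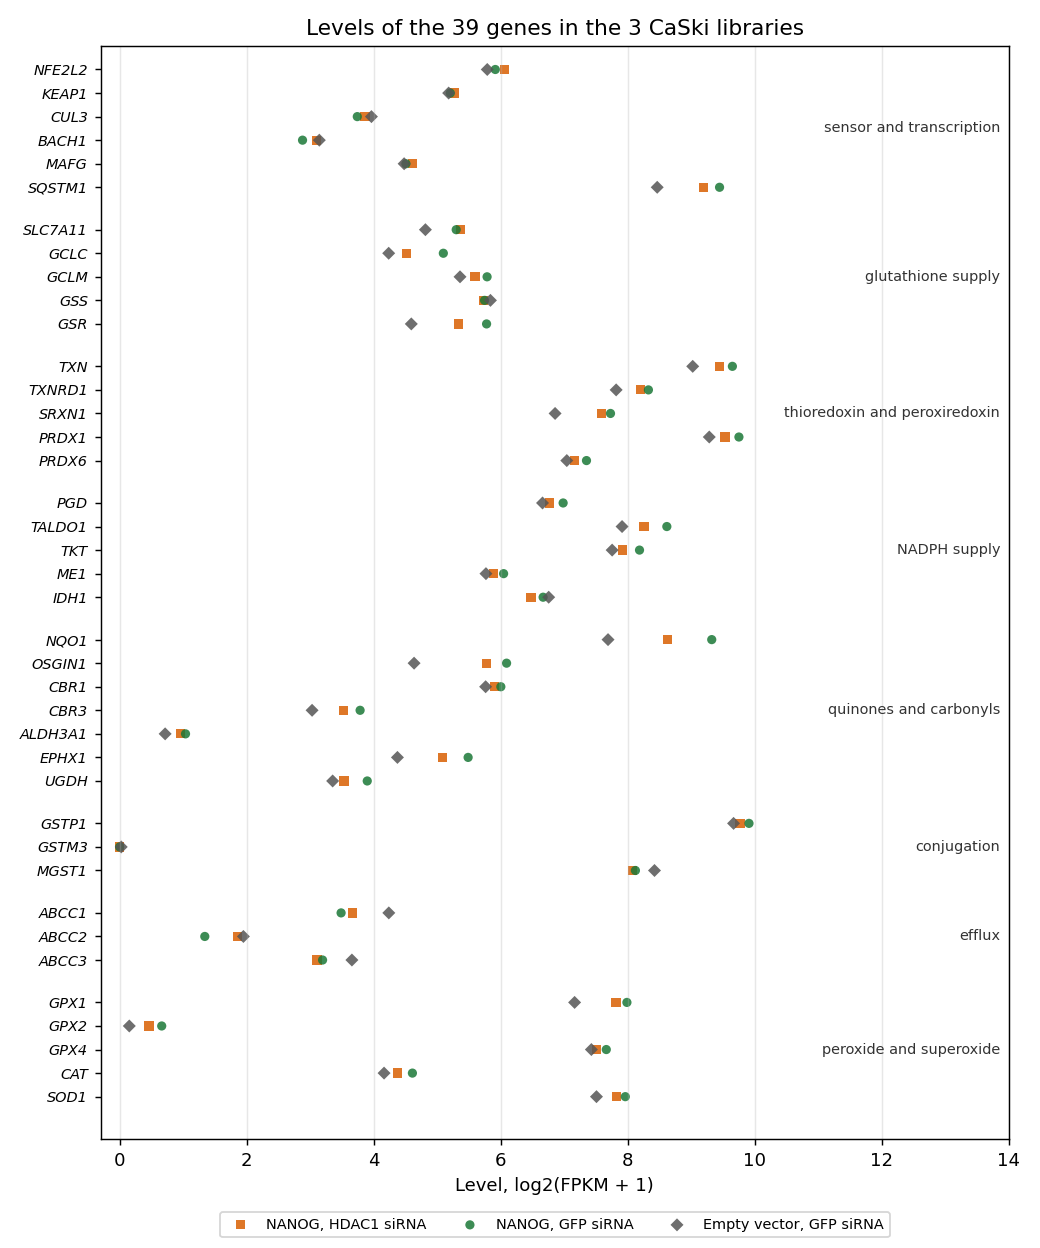
Level of each of the 39 genes, as log2(FPKM + 1), in the HDAC1 siRNA library (squares), the NANOG library (circles) and the empty vector library (diamonds), by role. Each point is 1 library; NQO1, OSGIN1, GSR and EPHX1 have their circles farthest to the right of their diamonds, and the 3 efflux genes have their diamonds on the right.

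Between the NANOG and the empty vector library, most enzymes of the pathway were higher, the 3 efflux pumps were lower, and the regulators other than SQSTM1 differed by at most 0.26. Of the 36 genes, 28 were higher and 8 lower, with a median log2 difference of 0.43; over all genes kept, 49.2% were higher and the median was -0.01. NQO1, OSGIN1, GSR and EPHX1 were at least 2-fold higher, which is 4 of 36 genes (11.1%) against 0.675% of all genes kept. No listed gene was 2-fold lower, against 1.22% of all genes kept. A difference of at least 0.5 upwards was found for 13 of the 36 genes (36.1%), against 5.24% of all genes kept. Among the genes at 100 FPKM or more, 14 of 15 were higher (median 0.47), where MGST1 was the exception, whereas 49.2% of the 800 genes kept at that level were. Because the list was drawn up with these differences known, they describe the list and do not support it.

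Between the HDAC1 siRNA and the NANOG library the differences were small and mostly downwards. Of the 36 genes, 28 were lower and 8 higher, with a median of -0.16, against 46.6% lower and a median of 0.01 over all genes kept. None was 2-fold lower or higher, where 0.21% and 0.0877% of all genes kept were. All 15 genes at 100 FPKM or more were lower, against 48.4% of the 800 genes kept at that level. With every library rescaled to TPM, the median of all genes kept moved to 0.18 and that of the 36 genes to 0.016, with 17 lower and 19 higher. Among the 15 genes at 100 FPKM or more, TXNRD1, SRXN1, GSTP1, MGST1, GPX1, GPX4 and SOD1 were then higher. The totals used for TPM took in the small RNAs. They were 600749 FPKM with HDAC1 siRNA and 681947 FPKM with NANOG, against 503138 FPKM and 522779 FPKM without small RNAs. A TPM without small RNAs was not tried. As deposited and under each of the 3 scalings, 28 of 36 lay below the median of all genes. Each scaling shifts all genes of a library almost alike, so this count could hardly change and shows no stability. Both comparisons use the NANOG library, so a high or low value in that library enters them with opposite signs. The comparison of the HDAC1 siRNA with the empty vector library does not contain it. It does share the empty vector library with the comparison of NANOG against empty vector, so these are not independent of each other. For HDAC1 siRNA against empty vector, 28 of the 36 genes were higher and 8 lower, with a median of 0.19 against 0.00 over all genes kept. OSGIN1 was 2-fold higher, which is 1 of 36 (2.78%) against 0.368% of all genes kept, and none was 2-fold lower, against 0.824%.

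**Figure D2:**
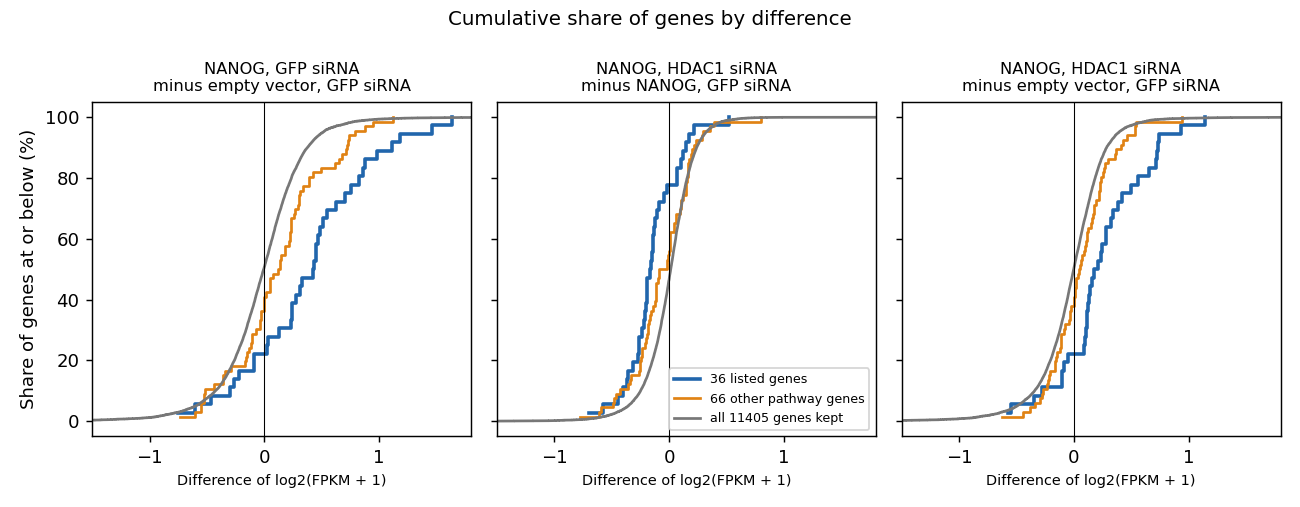
Cumulative share of genes (%) by difference of log2(FPKM + 1) in the 3 comparisons, for the 36 listed genes kept, 66 other genes of the pathway and all 11405 genes kept. The listed genes lie to the right of all genes for NANOG minus empty vector (medians 0.43 and -0.01) and to the left for HDAC1 siRNA minus GFP siRNA in NANOG cells (medians -0.16 and 0.01).

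The antioxidant response element has the core TGACNNNGC, and a longer form in which an A follows, and both were searched on both strands of the RefSeq windows (GRCh38.p14) from 250 bases before to 50 bases after a transcript's start. The table held 44 windows for 29 of the 39 genes. SLC7A11, GSS, GSR, PRDX1, PRDX6, CBR3, ALDH3A1, ABCC1, ABCC3 and SOD1 had no entry. The core stood in the windows of 11 of the 29 genes (37.9%), against 19.8% of the 8163 genes kept for comparison that had a window and 16.1% of all 27305 genes in the table. The longer form stood in those of 8 genes (27.6%), against 4.13% and 3.94%. These genes were listed as members of the pathway, so the motif share describes the list. By window, the longer form was in 8 of 44 (18.2%) against 3.18% of all 35116. The 7 matches of the longer form that lay before a start are printed first, because they have the letters of the element the pathway is known for. Whether any of them is bound or active was not tested. Each is given 5′ to 3′ along the strand of the match, which is in capitals, as the core with 20 bases on either side. The first base after the core is the A of the longer form.
GCLM: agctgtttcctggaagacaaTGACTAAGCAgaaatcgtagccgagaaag
KEAP1: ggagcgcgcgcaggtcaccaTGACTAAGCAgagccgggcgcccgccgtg
GSTP1: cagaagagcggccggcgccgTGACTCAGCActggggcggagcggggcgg
CBR1: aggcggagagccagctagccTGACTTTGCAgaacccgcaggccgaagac
EPHX1: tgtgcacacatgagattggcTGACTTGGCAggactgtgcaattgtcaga
GPX2: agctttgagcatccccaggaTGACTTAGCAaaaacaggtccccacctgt
TXNRD1: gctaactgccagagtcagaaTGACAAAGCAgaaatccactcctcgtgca
The GCLM stretch lay at chr1:93909436-93909484 on the plus strand, 26 bases before the start, and the KEAP1 stretch, whose match has the same 10 letters, at chr19:10502774-10502822 on the plus strand, 23 bases before the start. The stretch of GSTP1 lay at chr11:67583726-67583774 on the plus strand, 58 bases before the start. That of CBR1 lay at chr21:36069845-36069893 on the minus strand, 151 bases before the start, that of EPHX1 at chr1:225825256-225825304 on the plus strand, 70 bases before the start, that of GPX2 at chr14:64942839-64942887 on the plus strand, 114 bases before the start and that of TXNRD1 at chr12:104286910-104286958 on the minus strand, 94 bases before the start. MGST1 had the longer form after a start, and it is not printed. Coordinates are of the whole stretch, and distances are from the nearest base of the core to the start.

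The shorter core before a start was found in 5 more places, shown because 3 of the genes (ME1, PGD and IDH1) supply NADPH.
ME1: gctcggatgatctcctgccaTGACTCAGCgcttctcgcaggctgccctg
PGD: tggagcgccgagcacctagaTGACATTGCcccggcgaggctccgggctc
IDH1: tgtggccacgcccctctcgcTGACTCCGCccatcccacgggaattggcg
TXNRD1, other start: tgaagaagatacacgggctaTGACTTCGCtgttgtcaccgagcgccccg
KEAP1, other strand: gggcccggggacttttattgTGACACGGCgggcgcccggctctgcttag
They lay at chr6:83431160-83431208 on the minus strand, 129 bases before the start (ME1), at chr1:10398843-10398891 on the minus strand, 193 bases before the start (PGD), at chr2:208255186-208255234 on the minus strand, 135 bases before the start (IDH1), at chr12:104215660-104215708 on the plus strand, 91 bases before the start (TXNRD1) and at chr19:10502797-10502845 on the minus strand, 46 bases before the start (KEAP1). The letters TGACTCA, which are also the site of AP-1 factors, formed the first part of the core in GSTP1 and ME1, that is in 2 of 15 matches. NQO1 and OSGIN1, the genes that were highest in the NANOG library relative to empty vector, had no core in their windows; this says only that the letters are not in those windows. With the core, 10 genes had a median log2 difference of 0.26 between the NANOG and the empty vector library, and without it 17 genes had 0.54. The ranges overlapped widely, from -0.30 to 1.11 with the core and from -0.61 to 1.63 without it. Genes that had no window, GSR among them, are in neither set, and a core farther from a start was not searched for.

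Of the regulators, 5 of 6 differed between NANOG and empty vector by at most 0.26 on the log2 scale, SQSTM1 being the exception. NFE2L2 was at 65.9 FPKM in the HDAC1 siRNA library, 59.3 FPKM in the NANOG library and 54.2 FPKM in the empty vector library, a log2 difference of 0.15 between the NANOG libraries and of 0.13 between NANOG and empty vector. KEAP1, its sensor and ligase adaptor, had 37.7 FPKM with HDAC1 siRNA, 35.9 FPKM with NANOG and 35.2 FPKM with empty vector. The ratio of NFE2L2 to KEAP1 within a library, which no scaling changes, was 1.75 with HDAC1 siRNA, 1.65 with NANOG and 1.54 with empty vector. CUL3, the scaffold of the ligase, was at 13.6 FPKM in the HDAC1 siRNA, 12.4 FPKM in the NANOG and 14.6 FPKM in the empty vector library. MAFG, the partner of NRF2, was at 23.4 FPKM with HDAC1 siRNA, 21.7 FPKM with NANOG and 21.3 FPKM with empty vector and the repressor BACH1 at 7.54 FPKM with HDAC1 siRNA, 6.36 FPKM with NANOG and 7.84 FPKM with empty vector, so BACH1 and CUL3 were lowest in the NANOG library. Against empty vector, BACH1 differed by -0.26 and CUL3 by -0.22, and MAFG by 0.03. The signs of KEAP1 and MAFG, near 0 in this comparison, turned under TPM.

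SQSTM1, listed with the regulators because its protein p62 binds KEAP1 and carries it to autophagy, and itself a target of NRF2, stood apart from them. It was at 581 FPKM in the HDAC1 siRNA library, 696 FPKM in the NANOG library and 352 FPKM in the empty vector library. The log2 difference for NANOG against empty vector was 0.98, just under 2-fold, and with the libraries set to a common upper quartile it was 1.01. The HDAC1 siRNA library differed from NANOG by -0.26 and from empty vector by 0.72. The ratio of SQSTM1 to KEAP1 was 15.4 in the HDAC1 siRNA, 19.4 in the NANOG and 9.98 in the empty vector library.

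Of the 4 genes that were 2-fold higher, 3 (NQO1, OSGIN1 and EPHX1) were listed with the quinone and carbonyl genes, although of these NQO1 alone acts on quinones or carbonyls. NQO1, the quinone reductase that serves as the usual marker of NRF2 activity, was at 394 FPKM in the HDAC1 siRNA library, 639 FPKM in the NANOG library and 205 FPKM in the empty vector library. It was thus highest in the NANOG library, at 3.11 times its empty vector value, and the HDAC1 siRNA library lay between them. On the log2 scale NANOG differed from empty vector by 1.63, HDAC1 siRNA from NANOG by -0.70 and HDAC1 siRNA from empty vector by 0.94, which became 1.08 under TPM. OSGIN1, an oxidative stress-induced growth inhibitor gene, had 53.8 FPKM with HDAC1 siRNA, 67.2 FPKM with NANOG and 23.9 FPKM with empty vector. Relative to empty vector it differed by 1.14 with HDAC1 siRNA and by 1.46 with NANOG, so it was past 2-fold in both NANOG libraries.

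EPHX1, microsomal epoxide hydrolase, was at 33.0 FPKM with HDAC1 siRNA, 43.8 FPKM with NANOG and 19.7 FPKM with empty vector, a difference of 1.11 for NANOG and of 0.71 for HDAC1 siRNA against empty vector. The carbonyl reductases CBR1 and CBR3 both lie on chromosome 21 and differed unequally. CBR3 had 10.5 FPKM with HDAC1 siRNA, 12.8 FPKM with NANOG and 7.17 FPKM with empty vector (NANOG against empty vector 0.76), and CBR1 had 58.7 FPKM with HDAC1 siRNA, 63.1 FPKM with NANOG and 53.3 FPKM with empty vector (0.24). The ratio of CBR1 to CBR3 was accordingly 5.58 with HDAC1 siRNA, 4.93 with NANOG and 7.43 with empty vector. UGDH, which makes the UDP-glucuronate used in glucuronidation, was at 10.6 FPKM in the HDAC1 siRNA, 13.9 FPKM in the NANOG and 9.22 FPKM in the empty vector library. All 6 kept genes of this role were higher with NANOG than with empty vector (median 0.93) and lower with HDAC1 siRNA than with NANOG (median -0.34, where CBR1 turned sign under TPM). ALDH3A1, an aldehyde dehydrogenase, stayed under the filter at 0.947 FPKM with HDAC1 siRNA, 1.05 FPKM with NANOG and 0.643 FPKM with empty vector.

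**Figure D3:**
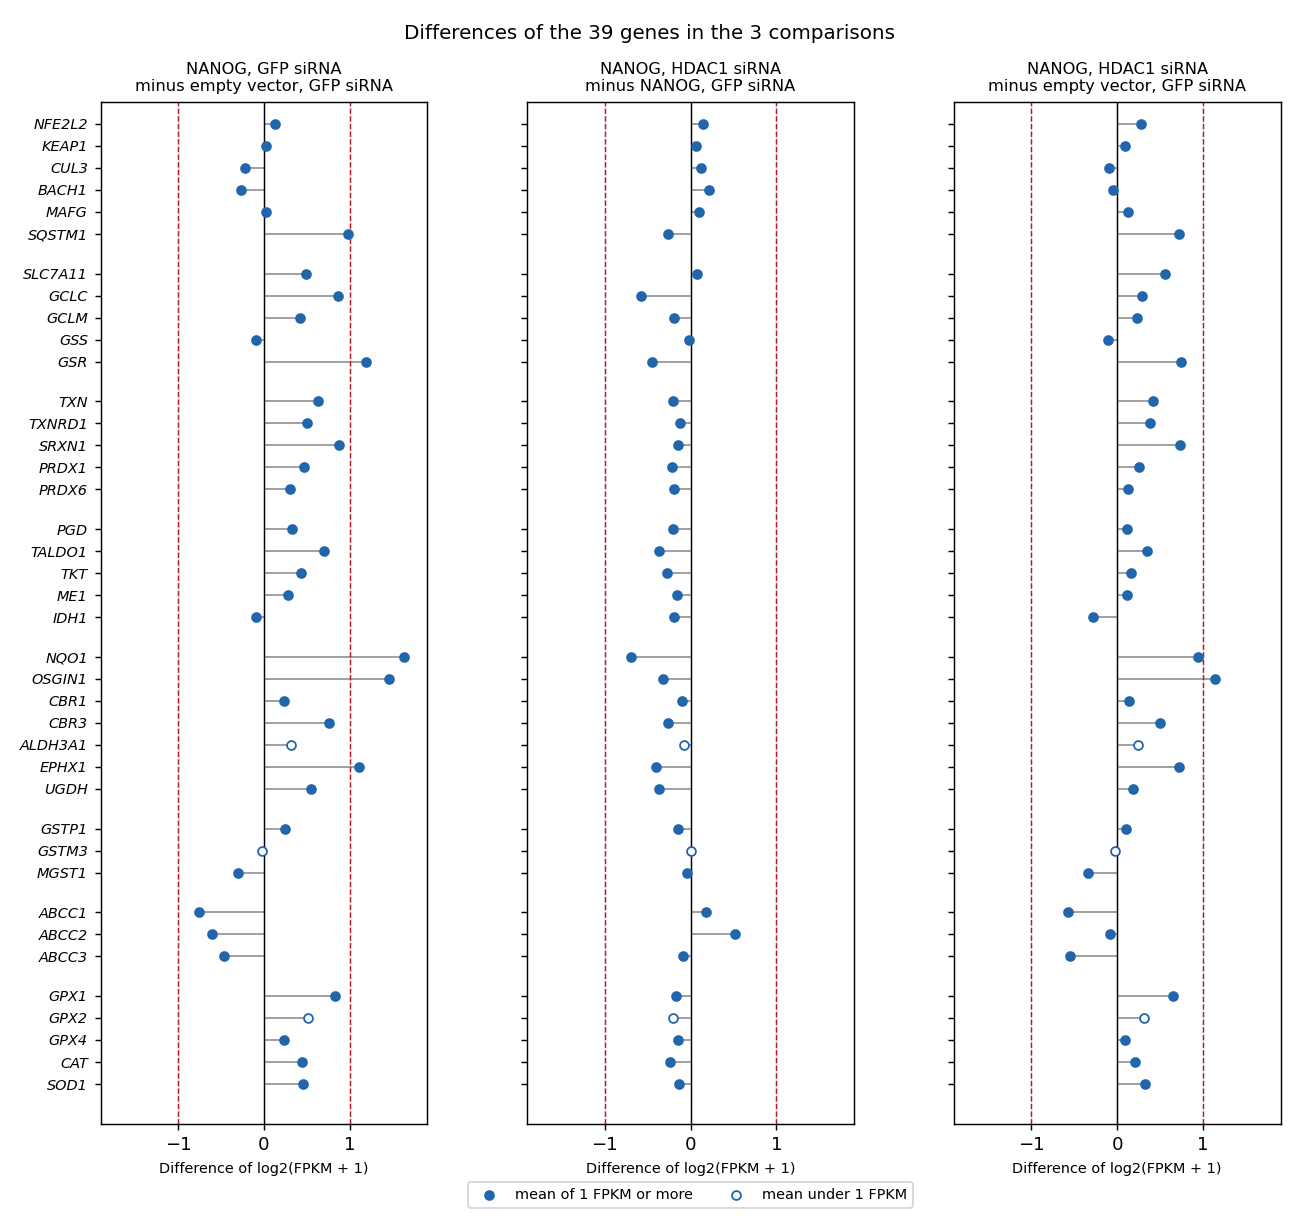
Difference of log2(FPKM + 1) for each of the 39 genes, by role, in the 3 comparisons; filled points are genes averaging 1 FPKM or more, open points the 3 genes below, and dashed lines mark 2-fold. NQO1, OSGIN1, GSR and EPHX1 pass the upper line on the left, none passes a line in the middle and OSGIN1 passes it on the right.

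Glutathione supply split by enzyme. GSR, glutathione reductase, which regenerates glutathione with NADPH, was at 39.2 FPKM in the HDAC1 siRNA library, 53.8 FPKM in the NANOG library and 23.1 FPKM in the empty vector library. Its difference was 1.18 for NANOG against empty vector, -0.45 for HDAC1 siRNA against NANOG and 0.74 for HDAC1 siRNA against empty vector. GSS, glutathione synthetase, the second enzyme of synthesis, was at 52.1 FPKM with HDAC1 siRNA, 52.6 FPKM with NANOG and 56.2 FPKM with empty vector, within 0.11 on the log2 scale in all comparisons (its sign turned under TPM in both that involve HDAC1 siRNA). The ratio of GSR to GSS was 0.753 with HDAC1 siRNA, 1.02 with NANOG and 0.411 with empty vector.

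Of the subunits of glutamate-cysteine ligase, the rate-limiting step, the catalytic GCLC was at 21.9 FPKM with HDAC1 siRNA, 33.2 FPKM with NANOG and 17.8 FPKM with empty vector. The modifier GCLM had 47.3 FPKM with HDAC1 siRNA, 54.1 FPKM with NANOG and 40.0 FPKM with empty vector. For NANOG against empty vector GCLC differed by 0.86 and GCLM by 0.43, and for HDAC1 siRNA against NANOG they differed by -0.58 (GCLC) and -0.19 (GCLM). The ratio of GCLC to GCLM was thus highest in the NANOG library, at 0.464 with HDAC1 siRNA, 0.613 with NANOG and 0.446 with empty vector. SLC7A11, the cystine importer that supplies cysteine for glutathione and that ATF4 also controls, followed another order, at 40.3 FPKM with HDAC1 siRNA, 38.4 FPKM with NANOG and 27.1 FPKM with empty vector. Its difference was 0.48 for NANOG and 0.56 for HDAC1 siRNA against empty vector, so that it was not lower with HDAC1 siRNA.

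All 5 genes of the thioredoxin and peroxiredoxin system were higher with NANOG than with empty vector (median difference 0.51) and lower with HDAC1 siRNA than with NANOG (median -0.19), where SRXN1 and TXNRD1 turned sign under TPM. Against empty vector, the HDAC1 siRNA library was higher for all 5 (median 0.39). SRXN1, sulfiredoxin, which repairs over-oxidised peroxiredoxins, differed most of the 5 from empty vector, at 191 FPKM with HDAC1 siRNA, 211 FPKM with NANOG and 115 FPKM with empty vector. Its differences were 0.87 for NANOG and 0.73 for HDAC1 siRNA against empty vector. TXN, thioredoxin, was at 694 FPKM with HDAC1 siRNA, 800.3 FPKM with NANOG and 519 FPKM with empty vector, and TXNRD1, the selenoprotein that reduces it, at 294 FPKM with HDAC1 siRNA, 319.5 FPKM with NANOG and 224 FPKM with empty vector. The ratio of TXN to TXNRD1 was 2.36 with HDAC1 siRNA, 2.50 with NANOG and 2.31 with empty vector. PRDX1, an abundant cytosolic peroxiredoxin, was at 738 FPKM with HDAC1 siRNA, 859.5 FPKM with NANOG and 622 FPKM with empty vector, and PRDX6, a peroxiredoxin that also acts on phospholipids, at 142 FPKM with HDAC1 siRNA, 162 FPKM with NANOG and 131 FPKM with empty vector. The ratio of SRXN1 to PRDX1 was 0.259 with HDAC1 siRNA, 0.245 with NANOG and 0.185 with empty vector.

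Of the NADPH enzymes, 4 of 5 were higher with NANOG than with empty vector (median 0.32), and all 5 were lower with HDAC1 siRNA than with NANOG (median -0.21; ME1 turned sign under TPM). TALDO1, transaldolase of the non-oxidative pentose phosphate branch, was at 304 FPKM with HDAC1 siRNA, 391 FPKM with NANOG and 239 FPKM with empty vector, with differences of -0.36 for HDAC1 siRNA against NANOG and 0.70 for NANOG against empty vector. TKT, transketolase of the same branch, was at 240.0 FPKM with HDAC1 siRNA, 289.8 FPKM with NANOG and 215 FPKM with empty vector, and PGD, the phosphogluconate dehydrogenase of the oxidative branch, at 108 FPKM with HDAC1 siRNA, 125 FPKM with NANOG and 99.9 FPKM with empty vector. Both were highest in the NANOG library, with differences from empty vector of 0.43 for TKT and 0.32 for PGD. ME1, cytosolic malic enzyme, had 58.1 FPKM with HDAC1 siRNA, 65.0 FPKM with NANOG and 53.5 FPKM with empty vector, a difference of 0.28 for NANOG against empty vector. IDH1, cytosolic isocitrate dehydrogenase, was the exception, at 88.0 FPKM with HDAC1 siRNA, 101 FPKM with NANOG and 107 FPKM with empty vector, lowest with HDAC1 siRNA and highest with empty vector.

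The 3 efflux pumps were lower with NANOG than with empty vector, as were the enzyme genes MGST1, GSS and IDH1. ABCC1, which exports glutathione conjugates, was at 11.7 FPKM in the HDAC1 siRNA library, 10.2 FPKM in the NANOG library and 17.9 FPKM in the empty vector library. Its difference for NANOG against empty vector was -0.75, at 57.1% of the empty vector value. ABCC3 had 7.61 FPKM with HDAC1 siRNA, 8.16 FPKM with NANOG and 11.6 FPKM with empty vector, and so was lower by about as much in both NANOG libraries, with differences of -0.55 for HDAC1 siRNA and -0.46 for NANOG against empty vector. ABCC2, a canalicular pump in liver, was low throughout, at 2.63 FPKM with HDAC1 siRNA, 1.53 FPKM with NANOG and 2.86 FPKM with empty vector; its difference of 0.52 for HDAC1 siRNA against NANOG was the highest of the 36 genes. All 3 pumps were lower with NANOG than with empty vector (median -0.61) and with HDAC1 siRNA than with empty vector (median -0.55), where ABCC2, at -0.09, turned sign under TPM.

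Of the conjugating enzymes, GSTP1, the pi-class glutathione transferase, was the most abundant of all 39 genes at 870.1 FPKM with HDAC1 siRNA, 959 FPKM with NANOG and 811 FPKM with empty vector, and differed by 0.24 for NANOG against empty vector. MGST1, a microsomal transferase, had 269 FPKM with HDAC1 siRNA, 277 FPKM with NANOG and 342 FPKM with empty vector, lower in both NANOG libraries with differences of -0.34 for HDAC1 siRNA and -0.30 for NANOG against empty vector. GSTM3, a mu-class transferase, had a listed value of 0 with HDAC1 siRNA and with NANOG, against 0.0178 FPKM with empty vector. No fold is given for it.

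Among the enzymes that remove peroxide and superoxide, all 4 kept genes were higher with NANOG than with empty vector (median 0.45). GPX1, the cytosolic selenium glutathione peroxidase, was at 224 FPKM with HDAC1 siRNA, 253 FPKM with NANOG and 142 FPKM with empty vector, a difference of 0.82 for NANOG and 0.65 for HDAC1 siRNA against empty vector. GPX4, which reduces lipid peroxides in membranes, differed less, at 182 FPKM with HDAC1 siRNA, 201 FPKM with NANOG and 171 FPKM with empty vector (0.23 and, for HDAC1 siRNA against empty vector, 0.09). The ratio of GPX1 to GPX4 was 1.24 with HDAC1 siRNA, 1.25 with NANOG and 0.832 with empty vector. SOD1, copper-zinc superoxide dismutase, was at 226 FPKM with HDAC1 siRNA, 248 FPKM with NANOG and 181 FPKM with empty vector, and CAT, catalase, at 19.7 FPKM with HDAC1 siRNA, 23.4 FPKM with NANOG and 16.9 FPKM with empty vector. With HDAC1 siRNA all 4 were lower than with NANOG (median -0.16), and GPX1, GPX4 and SOD1 turned sign under TPM. GPX2, the epithelial peroxidase, was under the filter, at 0.378 FPKM with HDAC1 siRNA, 0.583 FPKM with NANOG and 0.111 FPKM with empty vector.

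**Figure D4:**
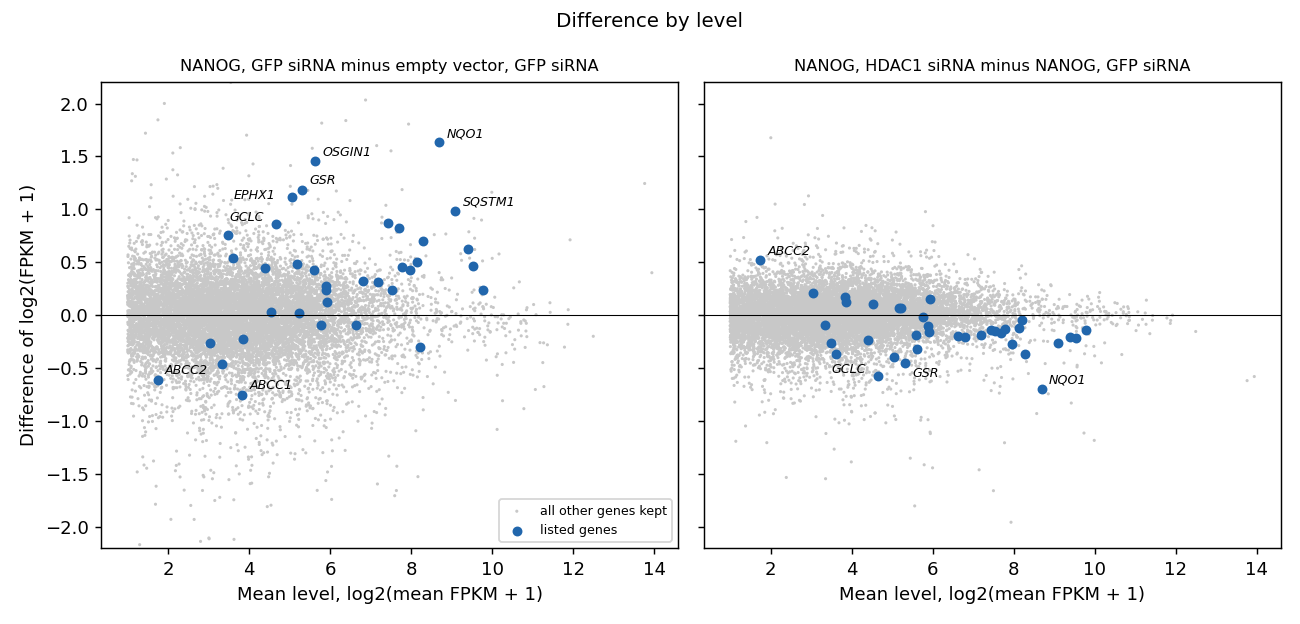
Difference of log2(FPKM + 1) against mean level, log2(mean FPKM + 1), for NANOG minus empty vector (left) and for HDAC1 siRNA minus GFP siRNA in NANOG cells (right); blue points are the 36 listed genes kept and grey points all other genes kept, of which 18 on the left and 7 on the right lie outside the vertical range. NQO1 (1.63) and OSGIN1 (1.46) are the highest blue points on the left, and NQO1 (-0.70) the lowest on the right.

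A further 82 genes of redox, glutathione, NADPH and conjugation chemistry, listed for their function, were read in the same way, and 66 were kept. For NANOG against empty vector 39 of 66 (59.1%) were higher, with a median of 0.13, against 49.2% of all genes kept. None was 2-fold lower, against 1.22% of all genes kept, and 1 (1.52%) was 2-fold higher, against 0.675%. That gene was UGT1A6, a glucuronosyltransferase, at 7.44 FPKM with HDAC1 siRNA, 8.57 FPKM with NANOG and 3.39 FPKM with empty vector (1.12); genes of the UGT1A locus share their last exons, so its value is uncertain. For HDAC1 siRNA against NANOG 36 of 66 (54.5%) were lower (median -0.05), against 46.6% of all genes kept. None was 2-fold lower or higher, where 0.21% and 0.0877% of all genes kept were. The small MAF gene MAFF was at 27.4 FPKM with HDAC1 siRNA, 15.3 FPKM with NANOG and 26.1 FPKM with empty vector, lowest in the NANOG library, and the mitochondrial glutaredoxin gene GLRX2 at 12.3 FPKM with HDAC1 siRNA, 21.7 FPKM with NANOG and 10.8 FPKM with empty vector, highest in it. The cytochrome P450 gene CYP4F11 differed by -0.60 for HDAC1 siRNA against NANOG, at values near the filter. It had 0.702 FPKM with HDAC1 siRNA, 1.57 FPKM with NANOG and 0.961 FPKM with empty vector. For HDAC1 siRNA against empty vector 40 of 66 (60.6%) were higher (median 0.05), against 49.8% of all genes kept. UGT1A6 was at 0.94, GSTO2, an omega-class transferase, at 0.54, PTGR1, a prostaglandin and alkenal reductase, at 0.54, and ME3, mitochondrial malic enzyme, at -0.63.

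Some values could be shared with other genes. In GENCODE release 29, exons of 15 of the 39 genes overlap exons of another gene, for 13 of them on the opposite strand, and the sources used here do not give how strand was handled in counting. CBR3 overlaps CBR3-AS1, which was at 4.44 FPKM in the HDAC1 siRNA library, 3.97 FPKM in the NANOG library and 4.52 FPKM in the empty vector library. NQO1, GCLC, EPHX1, NFE2L2, PRDX1 and SQSTM1 are also among the genes with an opposite-strand overlap. SRXN1, OSGIN1 and NFE2L2 overlap a gene on the same strand. Pseudogenes named after TXN (7), SOD1 (3), GPX1 (2), GSTM3 (2), PRDX1, PGD, GSTP1 and SQSTM1 (1 each) are annotated and have no value in the files, so the split of reads with them was not tested.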

How the data were processed

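Total RNA was sequenced from 3 CaSki libraries, 1 per group, prepared from 2 ug of RNA with a stranded total RNA kit, per the labels' protocols. The deposited values, 1 for each gene symbol, are taken here to be FPKM: the file headers give no unit, and the authors made them with TopHat2 and Cufflinks on hg19, per the submitters' processing notes; versions, gene models and strand handling are not stated there. FPKM is relative to all mapped fragments, so very abundant RNAs lower every other value. Absolute depth is unknown. Symbols of small RNAs (1627 of 23277) were left out, as was any gene with a mean under 1 FPKM. Differences were taken of log2(FPKM + 1), with a pseudocount of 1 FPKM, over 11405 genes, using Python 3.11.15, pandas 2.3.3, numpy 2.4.6 and matplotlib 3.10.9. The steps were run on simulated data with known differences well past 2-fold, which checks the code and not the differences reported here. With 1 library per group there was no test. The 39 genes, their roles and the other lists were chosen with earlier results of these data known. Named were all 39 genes and, per comparison, those of the 82 other pathway genes past 2-fold, else the 4 with the largest difference; 1 gene that this takes is not reported here. Promoter sequences are from RefSeq (GRCh38.p14), matched by symbol, and gene overlaps from GENCODE release 29; neither is the hg19 build of the values. Alternatives were other pseudocounts (0.1 and 0.5 FPKM), filters (none and 5 FPKM), scalings (upper quartile, median ratio, TPM), small RNAs kept, limits of 1.5-fold or 3-fold in place of 2-fold, and a mean over the list. For TPM, the total of a library took in its small RNAs.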

Additional observations from a re-analysis of the deposited data

How the results depend on the processing

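Most values kept their side of the 2-fold limit: of 861 values of single genes under an alternative, 859 did, and 2 passed it newly (SQSTM1 at 1.01 for NANOG against empty vector at a common upper quartile, and NQO1 at 1.08 for HDAC1 siRNA against empty vector under TPM). The other filters and the keeping of small RNAs cannot change the value of a single gene. Their part of the 861 was therefore fixed in advance and shows no stability. The median-ratio and upper quartile scalings also moved values little. The list median for NANOG against empty vector was 0.43 as deposited and under the median ratio, and 0.46 at a common upper quartile. Few values could cross the limit, so the count of 859 shows little stability. TPM moved the median of the list from -0.16 to 0.016 for HDAC1 siRNA against NANOG and from 0.19 to 0.33 for HDAC1 siRNA against empty vector, while the median of all genes kept moved to 0.18 and 0.13. TPM turned the sign of 11 genes in the first of these, 4 in the second and 2 for NANOG against empty vector, all of them under 2-fold. At 1.5-fold, 11 listed genes were higher and 2 lower of 36 for NANOG against empty vector (3.47% and 5.27% of all genes kept), 1 was lower for HDAC1 siRNA against NANOG (1.43%) and 7 were higher for HDAC1 siRNA against empty vector (1.78%). At 3-fold 1 was higher for NANOG against empty vector (0.184%), and none, that is 0, when HDAC1 siRNA was set against empty vector (0.123%), and at 2-fold under TPM 2 were higher for HDAC1 siRNA against empty vector (0.614%). No paired analysis was possible because each group had 1 library, and for the same reason no library could be left out. Absolute depth is unknown, and ALDH3A1, GPX2 and GSTM3, under 1 FPKM on average, are too low to compare.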
